A study of Mus musculus with 16 samples.

Results

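Genes that move iron into, through and out of the small intestinal epithelium, together with the siderophore-binding protein lipocalin-2, were followed across IL-22 treatment and loss of Atg16l1. The members were 8 named genes of the 49585 in the count table, matched to symbols by Ensembl identifier: Cybrd1, Slc11a2, Slc40a1, Heph, Tfrc, Fth1, Ftl1 and Lcn2. All 8 members were in the table and all 8 passed the filter on low counts. RNA was sequenced from 16 cultures of mouse small intestinal organoids, self-organizing epithelial cultures grown from crypts, in 4 groups of 4. Atg16l1 fl/fl organoids (labelled WT) came from mice carrying floxed alleles of the autophagy gene Atg16l1 without a Cre transgene. Atg16l1 ΔIEC organoids (labelled KO) came from mice that carried the same floxed alleles and Cre under the villin promoter, which is active in intestinal epithelial cells. The mice were of the C57BL/6 background and 8 to 12 weeks old. Each genotype was cultured without IL-22 or with IL-22 at 10 ng/ml for 24 h.

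Each genotype was represented by 2 organoid lines, each cultured in duplicate under either condition. The first 2 replicates of every group were from line 1293 in fl/fl and line 1290 in ΔIEC organoids, and the other two were from lines 1294 and 1292. The n of 4 therefore counts cultures of 2 lines, and a genotype difference cannot be told apart from a difference between these lines. Gene counts summed to between 2135000 and 5574860 in a culture. Levels are given as CPM, the counts of a gene scaled by edgeR to the TMM-adjusted size of the library. Atg16l1 itself was at 40.2 ± 7.24 CPM (SD, n = 4) in untreated fl/fl and 2.67 ± 1.2 CPM in untreated ΔIEC organoids, and at 45.0 ± 6.33 and 1.84 ± 2.76 CPM with IL-22.

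Dietary ferric iron is reduced at the brush border of enterocytes by duodenal cytochrome b (Cybrd1) and enters the cell through the divalent metal transporter DMT1 (Slc11a2). It is stored in ferritin, a shell of heavy (Fth1) and light (Ftl1) chains, or leaves through ferroportin (Slc40a1), the iron exporter, with the ferroxidase hephaestin (Heph) oxidizing it at the basolateral side. The transferrin receptor (Tfrc) brings in transferrin-bound iron. Lipocalin-2 (Lcn2) binds bacterial siderophores and is secreted by epithelia and neutrophils. When iron is scarce, iron regulatory proteins bind hairpins called iron-responsive elements (IRE), which stops translation of messages that carry them in the 5′ UTR and stabilizes Tfrc mRNA, which carries them in the 3′ UTR. Counts of mRNA therefore read only part of this control.

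The IRE sequences found by a strict letter search are shown because the ferritin, ferroportin and transferrin receptor messages carry them. The annotated UTRs of 21718 mouse genes (GENCODE M21, GRCm38) were searched on the transcript strand for a hairpin of 29 bases with a bulged C, 5 paired upper-stem positions, the loop letters CAGTG and at least 4 of 6 paired lower-stem positions. The search matched 23 genes (0.106%), among them 4 of the 8 members: Slc40a1, Fth1 and Ftl1 in the 5′ UTR and Tfrc 4 times in the 3′ UTR. Capitals mark the bulged C and the loop.
Fth1, 5′ UTR, chr19:9982732-9982760, plus strand: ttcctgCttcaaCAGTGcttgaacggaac
Ftl1, 5′ UTR, chr7:45459779-45459807, minus strand: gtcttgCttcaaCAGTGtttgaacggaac
Slc40a1, 5′ UTR, chr1:45925465-45925493, minus strand: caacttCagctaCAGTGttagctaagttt
Tfrc, 3′ UTR, chr16:32631219-32631247, plus strand: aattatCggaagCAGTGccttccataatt
Tfrc, 3′ UTR, chr16:32631598-32631626, plus strand: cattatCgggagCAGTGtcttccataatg
Tfrc, 3′ UTR, chr16:32631663-32631691, plus strand: ctatatCggagaCAGTGatctccatatgt
Tfrc, 3′ UTR, chr16:32631710-32631738, plus strand: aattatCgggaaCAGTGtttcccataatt
Cybrd1, Slc11a2, Heph and Lcn2 gave no match, which says only that these letters were not found in their annotated UTRs. Slc11a2 is known for transcripts with an IRE in the 3′ UTR, which this search did not match.

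Per kilobase of exon, ferritin was the most abundant of these messages in every group. In untreated fl/fl organoids Fth1 was at 767 ± 190 and Ftl1 at 539 ± 51.4 CPM per kb, with overlapping cultures. They were followed by Slc11a2 at 220 ± 81.8, Tfrc at 134 ± 6.29 and Cybrd1 at 96.1 ± 62.7 CPM per kb, of which Slc11a2 and Tfrc did not overlap while Tfrc and Cybrd1 did. Slc40a1 at 34.7 ± 17.3 and Heph at 20.2 ± 3.67 CPM per kb overlapped each other, and Lcn2 was at the floor, with at most 1 count in a culture. In IL-22–treated ΔIEC organoids the order was Ftl1 at 436 ± 21.1, Fth1 at 362 ± 46.6, Tfrc at 104 ± 11.1, Cybrd1 at 46.8 ± 28.3, Lcn2 at 26.5 ± 4.99, Slc11a2 at 23.0 ± 4.48, Slc40a1 at 18.0 ± 3.18 and Heph at 17.6 ± 1.79 CPM per kb. There Ftl1 and Fth1 did not overlap, and neither did Fth1 and Tfrc or Tfrc and Cybrd1, while each later neighbour in the order overlapped the next. The length used is that of all annotated exons of a gene, 3469 bases for Fth1 and 1340 for Ftl1, and transcripts in use can be shorter. The order of Ftl1 and Fth1 rests on these lengths: in counts Fth1 was higher, at 2.15 ± 0.308 for each Ftl1 count in these organoids. Places of the other members in the order carry the same limit.

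**Figure D1:**
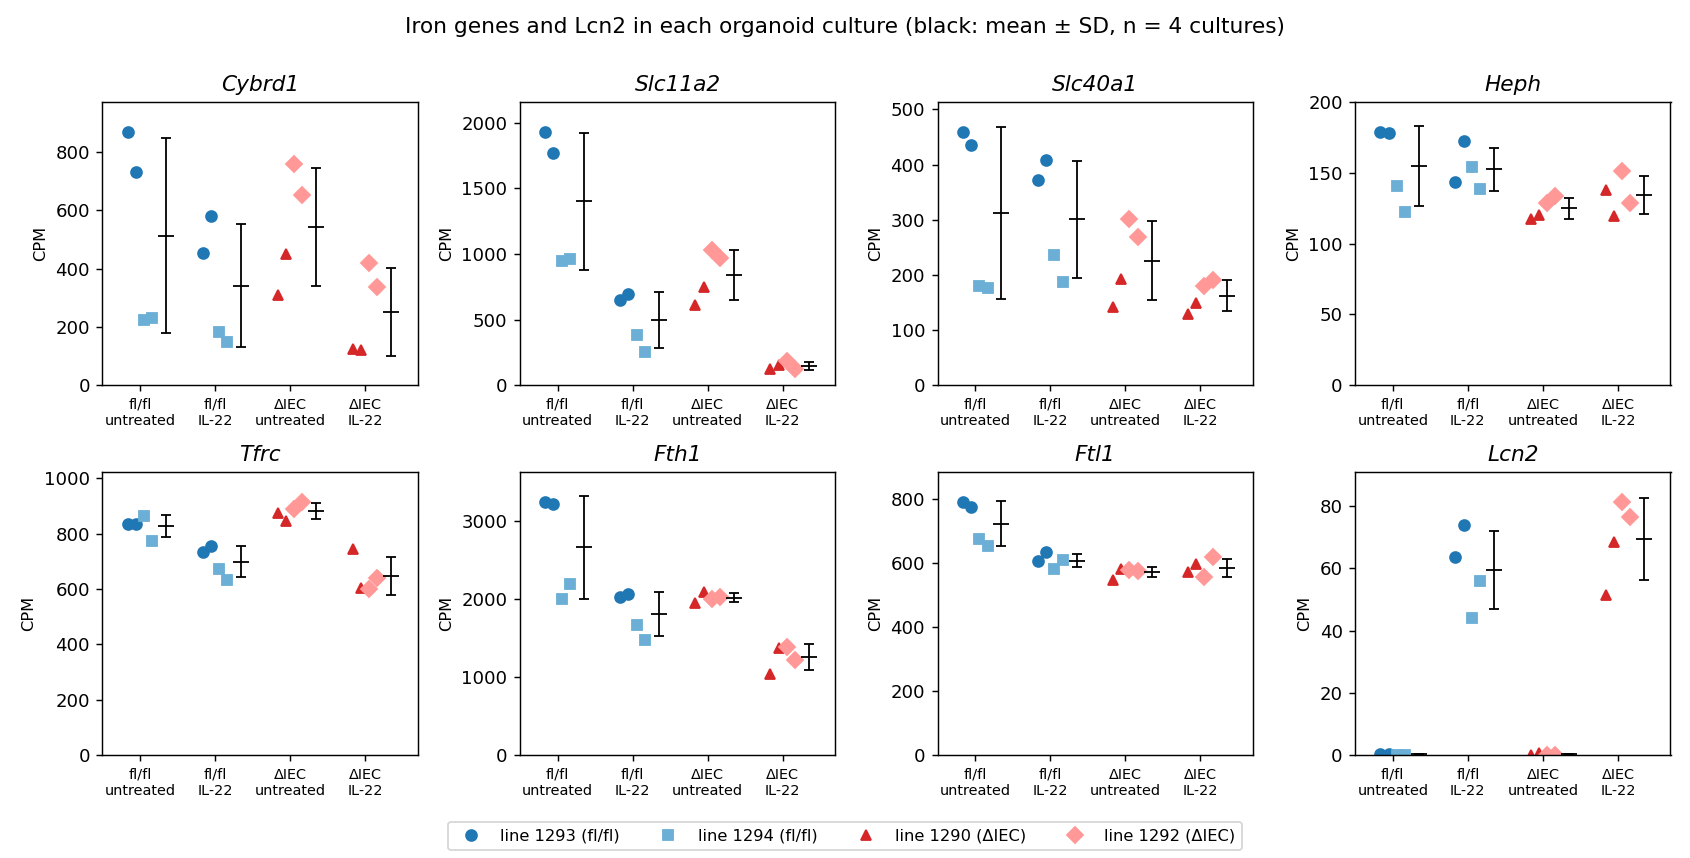
CPM of each member in each of the 16 cultures, on linear axes starting at 0; symbols mark the organoid line and the black bars the mean ± SD of 4 cultures. Slc11a2 was lower with IL-22 in both genotypes, Lcn2 was at 44.1 to 81.3 CPM in treated cultures and at most 0.492 CPM in untreated ones, and Cybrd1 and Slc40a1 were split by line within a group.

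The first comparison asked what IL-22 did to these genes in organoids with Atg16l1. In fl/fl organoids 3 of the 8 members passed an adjusted p of 0.01: Lcn2 rose, and the importer Slc11a2 and the ferritin heavy chain Fth1 fell. Over all 12559 genes tested, 20.8% passed. With the organoid line as a block, 6 members passed, against 30.6% of all genes: Cybrd1, Tfrc and Ftl1 fell too.

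Slc11a2 (chromosome 15, 100387898 to 100425072, minus strand) was the member that fell furthest. Untreated fl/fl cultures were at 1925 and 1769 CPM in line 1293 and at 948 and 958 CPM in line 1294. With IL-22 they were at 647 and 695 CPM in line 1293 and at 378 and 251 CPM in line 1294. All treated cultures lay below every untreated one, and line 1293 was above line 1294 in both conditions. On the log2 scale this was -1.51 (SE 0.28, adjusted p = 0.000335), a 2.85-fold decrease, with -1.46 within line 1293 and -1.60 within line 1294.

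Fth1 (chromosome 19, 9980598 to 9985098, plus strand), which carries the ferroxidase site of ferritin, stood at 3241, 3220, 2000 and 2189 CPM without and 2029, 2062, 1665 and 1479 CPM with IL-22. The groups overlapped, because treated cultures of line 1293 were above 1 untreated culture of line 1294, and within each line treated cultures were lower. IL-22 changed it by -0.56 on the log2 scale (SE 0.14, adjusted p = 0.00494). This call did not pass without line 1293 (-0.39, adjusted p = 0.0241), nor in a fit of the fl/fl groups alone (-0.55, adjusted p = 0.0244), and it passed with 4 of the 8 fl/fl cultures left out singly.

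The light chain Ftl1 (chromosome 7, 45457944 to 45459884, minus strand) was at 790, 774, 675 and 652 CPM without and 607, 633, 580 and 609 CPM with IL-22, without overlap. Its log2 fold change of -0.25 (SE 0.07) had an adjusted p of 0.0103 and one of 0.00124 with the line as a block. With single cultures left out it passed in 2 of 8 fits, and over all alternatives it ranged from -0.33 to -0.13. Reads at this locus were also given to Gm10252, a gene model on the opposite strand over exons of Ftl1, which held 0.647 to 0.843 counts for each Ftl1 count and moved by -0.26 (adjusted p = 0.0253). The strand setting of the counting is not given, so reads of the pair cannot be told apart, and Ftl1 values are uncertain to that extent. The pseudogene Ftl1-ps1 took 17 to 90 counts per culture.

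Tfrc (chromosome 16, 32608920 to 32632794, plus strand) was at 835, 836, 864 and 772 CPM without and 733, 754, 671 and 633 CPM with IL-22, again without overlap. The change was -0.24 on the log2 scale (SE 0.08, adjusted p = 0.0221), and with the line as a block -0.25 (adjusted p = 0.00401). With single cultures left out Tfrc passed in 0 of 8 fits, and over all alternatives it ranged from -0.30 to -0.17. Cybrd1 (chromosome 2, 71117923 to 71142926, plus strand) was at 867, 731, 224 and 230 CPM without and 454, 581, 184 and 148 CPM with IL-22. The lines of fl/fl organoids differed more in Cybrd1 than the treatments did, so the groups overlapped while both lines were lower with IL-22. Without a block the log2 value was -0.59 (SE 0.49, adjusted p = 0.381), and with the line as a block -0.54 (SE 0.12, adjusted p = 0.000474).

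The export genes gave no call. Slc40a1 (chromosome 1, 45908068 to 45926523, minus strand) was at 458, 435, 179 and 176 CPM without and 373, 408, 236 and 187 CPM with IL-22, lower with IL-22 in line 1293 and higher in line 1294. Its log2 fold change was -0.06 (95% confidence interval -0.68 to 0.56, adjusted p = 0.903). Heph (chromosome X, 96455359 to 96574485, plus strand) ranged from 122 to 179 CPM without and from 139 to 173 CPM with IL-22, with a log2 fold change of -0.02 (95% confidence interval -0.25 to 0.21, adjusted p = 0.903). The sign of both values turned in some of the alternative analyses.

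Lcn2 (chromosome 2, 32384633 to 32388252, minus strand) went from almost no reads to a clearly counted message. Untreated fl/fl cultures had 1, 1, 0 and 0 counts, and treated ones 161, 317, 235 and 187 counts (63.7, 74.1, 44.1 and 56.0 CPM). Against a floor of 3 counts per library, the treated mean of 59.5 ± 12.6 CPM was at least 62.5-fold higher, a bound that carries no test. The edgeR test of treated against untreated cultures gave an adjusted p of 6.97e-12. The neutrophil genes S100a8, Mpo, Elane and S100a9 had at most 2 counts in any culture. Of the 11 neutrophil and myeloid markers listed, 6 had at most 3 counts in every culture. The summed list was at 11.7 to 19.3 CPM without and 36.2 to 44.7 CPM with IL-22 in fl/fl organoids, where Ly6g alone rose from 0.889 to 21.5 CPM. In ΔIEC organoids Ly6g rose from 0.59 to 14.1 CPM. The cell source of Lcn2 was not tested.

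The sequence before a RefSeq start site of Lcn2 is shown because IL-22 signals through STAT3, and STAT proteins bind pairs of the half-sites TTC and GAA. That start lies inside the longer GENCODE extent given above, so these bases are upstream of 1 start site and not of the whole gene. The 250 bases before it (GRCm38.p6, chr2:32387740-32387989, minus strand) hold 1 such pair with a spacer of 4 bases, in capitals, starting 156 bases before the start site. They hold no pair with a spacer of 3 bases, and the letters do not tell which STAT protein, if any, binds there.
Lcn2, before the RefSeq start: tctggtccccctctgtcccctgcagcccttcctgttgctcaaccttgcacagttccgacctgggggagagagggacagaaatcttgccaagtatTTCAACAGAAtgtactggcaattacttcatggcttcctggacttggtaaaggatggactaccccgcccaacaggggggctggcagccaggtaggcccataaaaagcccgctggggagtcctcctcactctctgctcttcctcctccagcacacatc
Promoters of 250 bases before to 50 bases after a start were given for 5 of the 8 members and searched on both strands. The half-sites with a 4-base spacer were in 6.95% of all 32851 promoters and among these 5 members in Lcn2 only. With a 3-base spacer (TTCNNNGAA) they were in 8.30% of promoters and in none of these 5 members, the hypoxia-response letters ACGTG were in 19.6% and in Tfrc, and the NF-kB consensus was in 8.46% and in Cybrd1 and Ftl1. A match is a description of letters and not a bound site.

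The same treatment was then compared in organoids without Atg16l1. In ΔIEC organoids 4 of the 8 members passed: Lcn2 rose, and Slc11a2, Fth1 and Tfrc fell, against 17.5% of all genes tested. With the line as a block 6 members passed, against 25.5% of all genes, with Cybrd1 and Slc40a1 added, both lower.

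Slc11a2 was at 612, 748, 1026 and 972 CPM without and 126, 157, 182 and 121 CPM with IL-22. The lowest untreated culture was more than 3 times the highest treated one. On the log2 scale the change was -2.51 (SE 0.29, adjusted p = 2.21e-06), a 5.71-fold decrease, with -2.27 within line 1290 and -2.72 within line 1292. Gm5475, which is annotated on the opposite strand over exons of Slc11a2 and had at most 251 counts, fell with it in both genotypes, at -1.42 on the log2 scale in fl/fl cultures and -2.69 in ΔIEC cultures. Reads of this pair cannot be told apart either, because the strand setting is not given.

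Fth1 was at 1946, 2085, 2005 and 2024 CPM without and 1043, 1374, 1387 and 1213 CPM with IL-22, without overlap. Its log2 fold change was -0.68 (SE 0.14, adjusted p = 0.0011). It did not pass when either line was left out (-0.63 and -0.77, adjusted p = 0.0527 without line 1290 and 0.0262 without line 1292). Tfrc was at 874, 846, 891 and 914 CPM without and 745, 602, 598 and 639 CPM with IL-22, also without overlap, a change of -0.45 on the log2 scale (SE 0.08, adjusted p = 0.000228). Without line 1292 it was -0.39 (adjusted p = 0.0419). Fth1 and Tfrc were thus both lower with IL-22 in these organoids, and control through their IREs was not tested.

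Ftl1 gave 547, 582, 577 and 574 CPM without and 570, 596, 554 and 618 CPM with IL-22. These groups overlapped, and the fitted log2 value was 0.04 (95% confidence interval -0.11 to 0.19, adjusted p = 0.756). Cybrd1 was at 308, 451, 759 and 651 CPM without and 124, 121, 419 and 336 CPM with IL-22. It was lower with IL-22 in both lines, with a log2 ratio of -1.64 in line 1290 and -0.90 in line 1292. Without a block the fit gave -1.11 (SE 0.49, adjusted p = 0.104), and with the line as a block -1.24 (SE 0.12, adjusted p = 1.29e-09).

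Slc40a1 was at 142, 193, 300 and 268 CPM without and 128, 149, 180 and 191 CPM with IL-22. The fit gave -0.46 (SE 0.31, adjusted p = 0.289), and with the line as a block -0.44 (SE 0.10, adjusted p = 0.000703). Heph ranged from 117 to 134 CPM without and from 120 to 152 CPM with IL-22 (log2 fold change 0.11, 95% confidence interval -0.13 to 0.34, adjusted p = 0.526). Lcn2 had 0, 2, 0 and 0 counts without and 127, 241, 269 and 264 counts with IL-22 (51.4, 68.5, 81.3 and 76.4 CPM). Its treated mean of 69.4 ± 13.1 CPM was at least 71.2-fold above the floor of 3 counts per library, again without a test of that bound. The edgeR test of treated against untreated cultures gave an adjusted p of 3.8e-12.

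**Figure D2:**
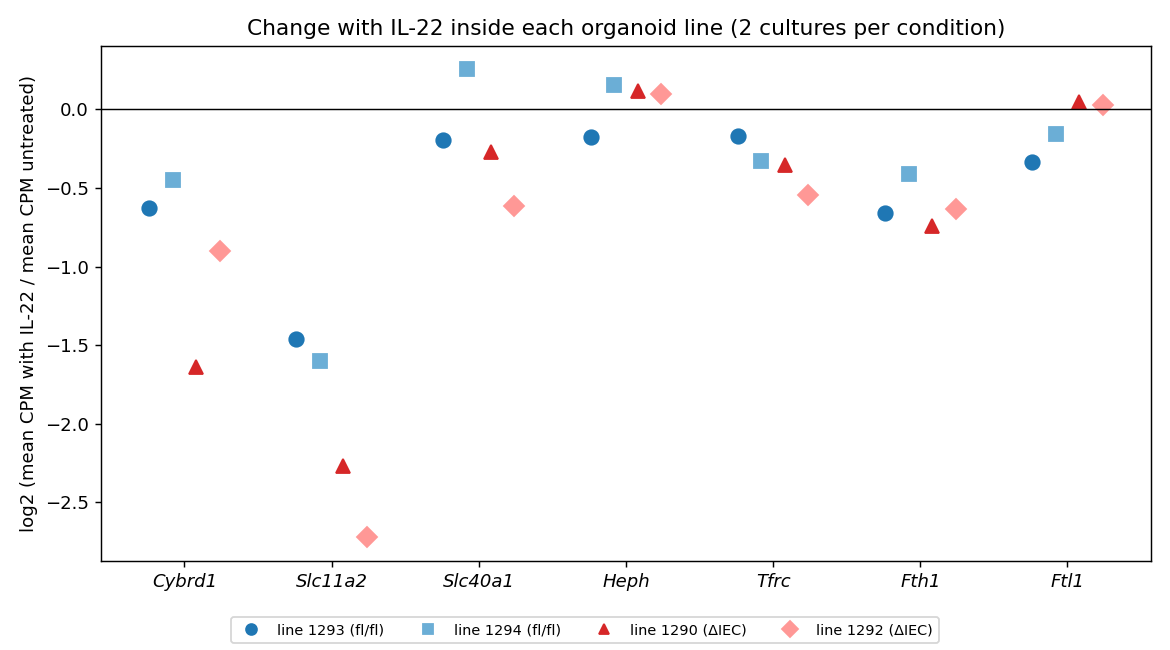
Log2 ratio of mean CPM with IL-22 to mean CPM untreated inside each organoid line (y axis), for the 7 members other than Lcn2 (x axis); each point is 1 line, with 2 cultures per condition. Slc11a2, Cybrd1, Tfrc and Fth1 were lower with IL-22 in all 4 lines, while Slc40a1, Heph and Ftl1 had lines on both sides of 0.

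Markers of differentiated enterocytes, the cells in which DMT1 acts, moved with IL-22 as well. The summed level of 11 enterocyte markers (among them Alpi, Sis and Fabp1) was 3843 to 4309 CPM in untreated and 1273 to 1682 CPM in treated fl/fl cultures, and 3689 to 4490 against 1249 to 2099 CPM in ΔIEC cultures. Alpi passed in neither genotype (adjusted p = 0.0403 in fl/fl and 0.0122 in ΔIEC) and Fabp1 in fl/fl only. Anpep was not lower in ΔIEC organoids (0.47 on the log2 scale, adjusted p = 0.366). Of these 11 markers 9 passed as lower in fl/fl and 6 in ΔIEC organoids, and none passed as higher. In bulk cultures, fewer cells of a type and less RNA per cell cannot be told apart, and the part of this change in the fall of Slc11a2, Cybrd1 and Fth1 was not tested. Stem cell markers also had lower sums, at 1629 to 2015 against 819 to 948 CPM in fl/fl and 2179 to 2420 against 922 to 1252 CPM in ΔIEC organoids. The 9 epithelial markers were all tested, whereas 6 of 6 lymphocyte, 6 of 7 erythroid and 8 of 9 stromal and endothelial markers had at most 3 counts in every culture.

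The next comparison asked which members differed with genotype before treatment. In untreated organoids 1 of the 8 members passed, Ftl1, against 9.76% of all genes. Ftl1 stood at 547 to 582 CPM in ΔIEC and at 652 to 790 CPM in fl/fl organoids, without overlap. Its log2 fold change was -0.34 (SE 0.07, adjusted p = 0.00249), a 1.27-fold lower level. The value held in DESeq2, but with any of lines 1290, 1292 and 1293 left out it did not pass (-0.33, -0.33 and -0.22, adjusted p = 0.0372, 0.0275 and 0.0705). The opposite-strand gene Gm10252 was at -0.26 (adjusted p = 0.0352) here as well.

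The remaining untreated differences did not pass, and those of Slc11a2, Fth1, Slc40a1 and Heph were larger and passed without fl/fl line 1294. That fit leaves line 1293 as the only fl/fl line. Over all alternatives the log2 values ranged from -1.14 to -0.19 for Slc11a2, from -0.68 to -0.06 for Fth1 and from -0.52 to -0.07 for Heph. Slc11a2 was lower in ΔIEC organoids by the group means, 839 ± 194 against 1400 ± 520 CPM, a log2 difference of -0.74 (SE 0.27, adjusted p = 0.06). The ΔIEC cultures overlapped line 1294 and not line 1293. Without line 1294 the value was -1.14 (adjusted p = 0.000125). Fth1 differed by -0.40 on the log2 scale (SE 0.14, adjusted p = 0.0503) and -0.68 (adjusted p = 9.16e-05) without line 1294, since all 4 ΔIEC cultures lay within 1946 to 2085 CPM, near the 2000 and 2189 CPM of that line. Heph had -0.32 (SE 0.11, adjusted p = 0.0525) and, without line 1294, -0.52 (adjusted p = 0.00155). Slc40a1 had -0.48 (SE 0.30, adjusted p = 0.272), with -0.996 (adjusted p = 0.00168) without line 1294 and 0.33 (adjusted p = 0.365) without line 1293. Tfrc (0.09, 95% confidence interval -0.07 to 0.26, adjusted p = 0.439) and Cybrd1 (0.07, 95% confidence interval -0.94 to 1.08, adjusted p = 0.94) did not pass, and the sign for Cybrd1 depended on which line was left out. Lcn2 was at the floor in both genotypes, so no fold change is given.

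Cell type markers differed in untreated organoids too. Paneth cell markers summed to 3118 to 4081 CPM in ΔIEC against 5531 to 7804 CPM in fl/fl organoids, and 2 of 6 were lower. Stem cell markers were at 2179 to 2420 against 1629 to 2015 CPM, with 3 of 5 higher. Of 7 goblet and 7 enteroendocrine cell markers, 3 and 2 were lower. Enterocyte markers overlapped, at 3689 to 4490 against 3843 to 4309 CPM, with 1 of 11 higher and 1 lower. Their part in the untreated differences of the members was not tested.

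With IL-22 present, 2 of the 8 members differed with genotype, against 19.8% of all genes, and both were lower in ΔIEC organoids. Slc11a2 was at 121 to 182 CPM in ΔIEC and at 251 to 695 CPM in fl/fl organoids, without overlap. On the log2 scale they differed by -1.75 (SE 0.29, adjusted p = 0.000167), a 3.36-fold lower level. Fth1 was at 1043 to 1387 CPM in ΔIEC and at 1479 to 2062 CPM in fl/fl organoids, also without overlap (-0.53, SE 0.14, adjusted p = 0.00793). Neither passed when the cultures of a line were summed, leaving 2 lines per group: Slc11a2 was then at -1.77 (adjusted p = 0.0245) and Fth1 at -0.52 (adjusted p = 0.113). Fth1 did not pass without line 1290, 1292 or 1293 either (-0.48, -0.61 and -0.35, adjusted p = 0.0883, 0.0257 and 0.0153). With single cultures left out it passed in 2 of 8 fits.

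The enterocyte list was not lower in treated ΔIEC organoids, at 1249 to 2099 against 1273 to 1682 CPM, and 4 of its 11 genes were higher and none lower. Paneth cell markers were lower, with sums of 3953 to 4740 against 7036 to 9407 CPM, as were goblet cell markers, at 842 to 1365 against 1592 to 2330 CPM. Stem cell markers overlapped, at 922 to 1252 against 819 to 948 CPM, with 3 of 5 higher and 1, Lgr5, lower. Enteroendocrine markers were at 224 to 481 against 508 to 690 CPM, without overlap, and 4 of 7 were lower. Their part in these differences was not tested. Slc40a1 differed by -0.89 on the log2 scale (SE 0.30, adjusted p = 0.0313) and did not pass. It passed in the fit of the compared groups alone (-0.89, adjusted p = 0.00624) and without line 1294 (-1.26, adjusted p = 0.00024). With single cultures left out it passed in 0 of 8 fits, and over all alternatives it ranged from -1.26 to -0.41. The other differences did not pass: Cybrd1 had -0.44 (SE 0.49, adjusted p = 0.518), Heph -0.19 (SE 0.11, adjusted p = 0.21), Tfrc -0.11 (SE 0.08, adjusted p = 0.292) and Ftl1 -0.05 (SE 0.07, adjusted p = 0.593). Lcn2 was at 51.4 to 81.3 CPM in ΔIEC and 44.1 to 74.1 CPM in fl/fl organoids, overlapping, with a log2 difference of 0.24 (95% confidence interval -0.10 to 0.57, adjusted p = 0.266).

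**Figure D3:**
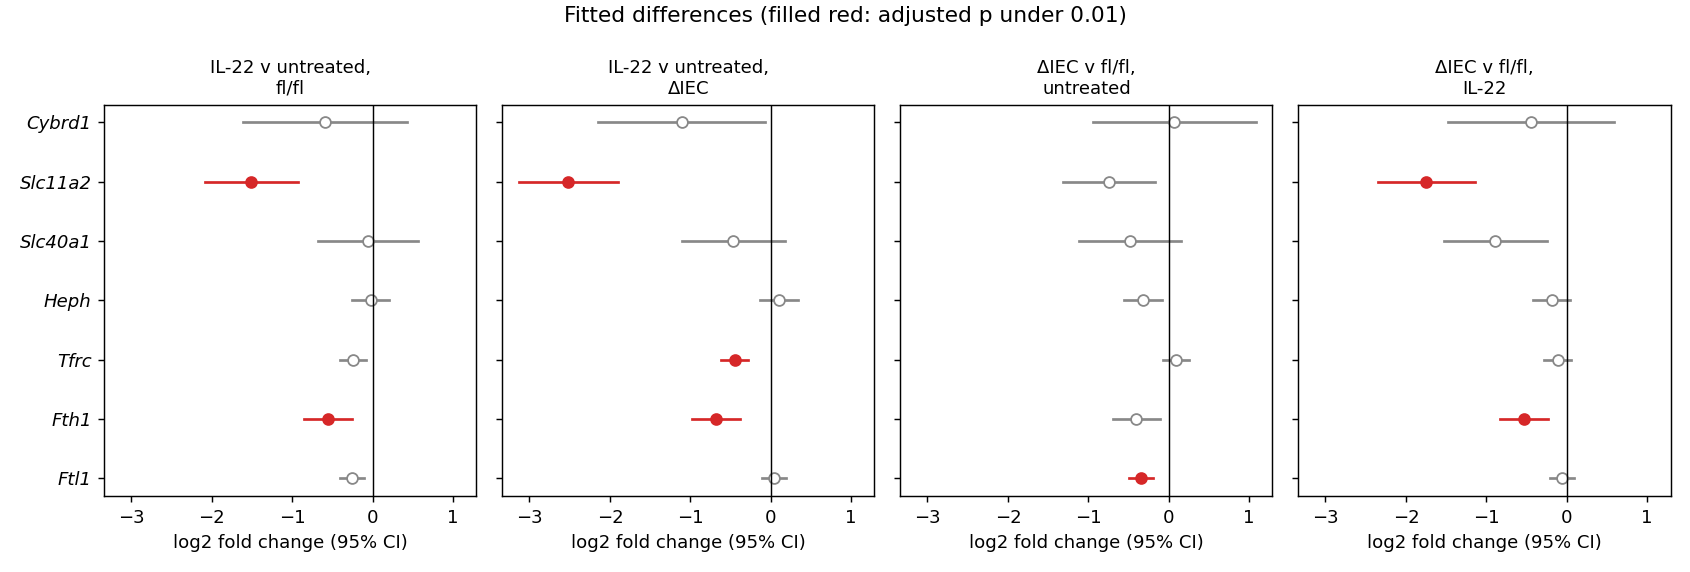
Log2 fold changes with 95% confidence intervals (x axis) of 7 members (y axis) in the 4 comparisons between groups, from the edgeR fit; filled red points passed an adjusted p of 0.01. Slc11a2 had the lowest value of the 7 in all 4 panels, and Ftl1 was the single filled point in untreated organoids. Lcn2 is left out because its untreated groups were at the floor.

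Whether the IL-22 effect itself differed between genotypes was tested as an interaction. None of the 8 members passed in the edgeR fit, in which 0.0159% of all genes did, and none passed in DESeq2. In the edgeR fit 2 of the 8 members had an unadjusted p under 0.05, as did 912 of all 12559 genes. The 2 members were Slc11a2, with a further log2 change of -1.01 in ΔIEC organoids (SE 0.39, unadjusted p = 0.0186, adjusted p = 0.559), and Ftl1, with 0.29 (SE 0.10, unadjusted p = 0.00999, adjusted p = 0.516). With the organoid line as a block, Slc11a2 passed (-0.97, SE 0.16, adjusted p = 0.00062), against 0.446% of all genes. It did not pass with the cultures of a line summed (-1.03, adjusted p = 0.9998) or in limma-voom with duplicateCorrelation on the line (-0.94, adjusted p = 0.187). Its within-line changes were -1.46 and -1.60 in fl/fl and -2.27 and -2.72 in ΔIEC lines. Under the block Cybrd1 was at -0.70 (SE 0.17, adjusted p = 0.0296), Slc40a1 at -0.46 (adjusted p = 0.0886) and Ftl1 at 0.28 (adjusted p = 0.0889).

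Ratios of members within a culture do not depend on library scaling. There were 3.65 ± 0.586 Fth1 counts for each Ftl1 count (SD, n = 4) in untreated and 2.98 ± 0.419 in treated fl/fl organoids, and 3.53 ± 0.0479 in untreated and 2.15 ± 0.308 in treated ΔIEC organoids. The treated and untreated ΔIEC cultures did not overlap, with a log2 difference of -0.73 (SE 0.10). By a two-sided exact permutation test this gave p = 0.0286, the smallest that 4 against 4 cultures allow, and p = 0.114 adjusted over the 8 ratio tests. In fl/fl organoids the ratio went from 4.11 and 4.16 to 3.34 and 3.26 in line 1293 and from 2.96 and 3.35 to 2.87 and 2.43 in line 1294. Treated cultures were lower without overlap within each line (-0.32 and -0.26 on the log2 scale) and overlapped untreated ones between lines only. The pooled difference was -0.29 (SE 0.16, exact permutation p = 0.114, adjusted p = 0.183). Tfrc counts per Fth1 count were 0.326 ± 0.0839 and 0.39 ± 0.0318 in untreated and treated fl/fl, and 0.438 ± 0.0215 and 0.528 ± 0.132 in untreated and treated ΔIEC organoids. With 4 against 4 cultures these exact permutation tests could not reach a threshold of 0.01, so the ratios are given as values and differences between groups remain undecided.

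The other genes of the pathway came from 8 lists with 82 genes besides the members, of which 63 passed the filter on low counts. With IL-22, 7 of the 63 rose and 6 fell in fl/fl organoids, with a median log2 fold change of -0.13 beside -0.05 for all genes, and 6 rose and 5 fell in ΔIEC organoids, with a median of -0.13 beside -0.01. Their calls were thus spread over both directions at a share close to that of all genes.

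The furthest rises were those of Hif1a and Hmox1. Hif1a, a hypoxia-inducible transcription factor subunit, went from 76.98 ± 5.51 to 239 ± 12.7 CPM in fl/fl organoids and, in ΔIEC, from 84.7 ± 10.1 to 263 ± 37.5 CPM (1.64 and 1.62 on the log2 scale, adjusted p = 3.84e-10 and 3.51e-10). Hmox1, the inducible heme oxygenase that frees iron from heme, went from 21.2 ± 6.78 to 66.8 ± 5.29 and from 16.8 ± 3.63 to 51.6 ± 16.9 CPM (1.61 and 1.64, adjusted p = 7.51e-06 and 1.2e-05). Of the 14 heme genes tested, Alas1, the first enzyme of heme synthesis, rose as well in fl/fl organoids (0.37), whereas Urod fell in both genotypes (-0.57 and -0.56) and the biliverdin reductase Blvra fell in fl/fl organoids (-0.52).

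Among 5 further genes of luminal reduction and uptake, the metalloreductase Steap2 rose in both genotypes (0.54 in fl/fl and 0.37 in ΔIEC) and the folate and heme transporter Slc46a1 fell in both (-0.77 and -1.29). Steap3 fell in ΔIEC organoids (-1.25). Among 3 further genes of export and ferroxidases the copper transporter Atp7a rose in both genotypes (0.59 and 0.57), and among 5 of the transferrin cycle the recycling GTPase Rab11a rose in both (0.60 and 0.52). The iron chaperone Pcbp2 fell in both (-0.47 and -0.29) and Glrx3 in fl/fl organoids (-0.39), out of 5 genes of storage and chaperones. In the 8 genes of iron sensing, Aco1, which encodes iron regulatory protein 1, fell (-0.36 and -0.28) and Skp1a rose (0.34 and 0.35) in both genotypes. Ireb2, which encodes iron regulatory protein 2, had -0.11 and -0.07 and did not pass. None of 22 genes of mitochondrial iron and iron-sulfur clusters passed in either genotype. Hepcidin (Hamp) had no counts in any culture, and Trf and the lipocalin-2 receptor Slc22a17 had at most 2 and 3.

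**Figure D4:**
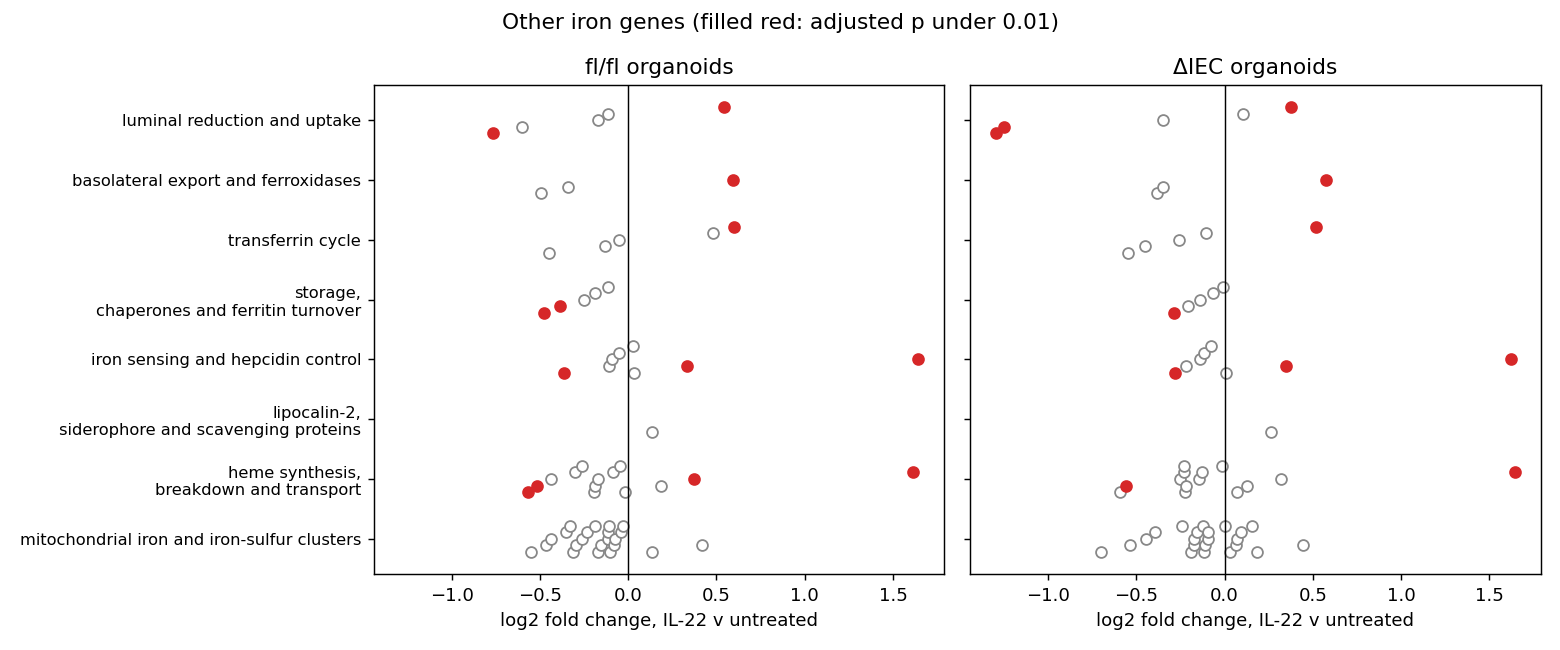
Log2 fold change with IL-22 (x axis) of the 63 other iron genes tested, by list (y axis; points are spread vertically for legibility), in fl/fl (left) and ΔIEC organoids (right); filled red points passed an adjusted p of 0.01. Hif1a and Hmox1 are the points beyond 1.5 in both panels, and no gene of the mitochondrial list is filled.

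Between genotypes, 4 of the 63 were higher and 3 lower in untreated ΔIEC organoids, where 9.76% of all genes passed, with a median log2 fold change of -0.08 beside -0.02 for all genes. With IL-22, where 19.8% of all genes passed, 6 were higher and 5 lower, with a median of -0.05 beside 0.01. The metal importer Slc39a14 (ZIP14) was lower in ΔIEC organoids in both conditions (-0.47 untreated, -0.64 with IL-22), at 313 ± 30.7 against 433 ± 35.5 CPM and at 246 ± 42.7 against 384 ± 26.9 CPM. Slc39a8 (ZIP8) was lower in untreated organoids (-0.49) and Slc46a1 in treated ones (-0.95). The iron chaperone Pcbp1 was higher in both (0.28 and 0.25). Alas1 was higher in untreated (0.57) and Blvra in treated ΔIEC organoids (0.78).

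Of the iron-sulfur cluster genes, Iba57 was higher (0.55) and Isca1 lower (-0.45) in untreated organoids, and Nubp2 (0.56), Nfs1 (0.39) and Nubp1 (0.36) were higher in treated ones. With IL-22 the transferrin receptor Tfr2, at 1.2 ± 0.742 against 6.54 ± 2.17 CPM, the hypoxia factor Epas1 (-0.80) and Neo1 (-0.29) were lower in ΔIEC organoids. Tfr2 differed by -2.40 on the log2 scale (SE 0.46, adjusted p = 0.000609). Its treated ΔIEC level was near the floor of 3 counts. Among treated ΔIEC libraries 1 count was worth 0.302 CPM in replicate 3 and 0.289 CPM in replicate 4, and 2 counts 0.81 CPM in replicate 1. The size of the Tfr2 difference is therefore uncertain. None of the 63 passed the interaction test.

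Across the 16 cultures the members did not follow 1 pattern. As a description over log2 CPM of cultures that share lines and treatments, Pearson's r was 0.96 between Slc11a2 and Fth1 and 0.79 between Cybrd1 and Slc40a1, but 0.004 between Heph and Tfrc. Lcn2 was closest to Reg3b, Reg3g and Mmp28 (r = 0.995, 0.992 and 0.990), and Reg3b and Reg3g encode antimicrobial lectins. Slc11a2 was closest to Gm16559, Adh1 and Gm5475 (0.981, 0.978 and 0.977), the last being its opposite-strand neighbour, with reads that cannot be told apart. Fth1 was closest to Slc25a13, Mfge8 and Galk1 (0.963, 0.958 and 0.957). Cybrd1 was closest to Plin2, Ano1 and Car2 (0.967, 0.938 and 0.937) and Tfrc to Adh4, Fuca2 and Iffo2 (0.945, 0.939 and 0.933). Slc40a1 was closest to Hist1h1c, Gstt2 and Mapkapk2 (0.915, 0.909 and 0.907), Ftl1 to Vps41, Atp6v1b2 and Rps23 (0.889, 0.881 and 0.866), and Heph to Ndfip2, Agtrap and Abhd11os (0.891, 0.882 and 0.875).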

How the data were processed

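Groups and organoid lines were taken from the sample labels. The authors used cutadapt for trimming, TopHat2 for alignment to GRCm38 and HTSeq for counting; they deposited raw whole-number counts per gene. The library kit is TruSeq RNA v2 in the labels but a stranded total RNA kit in the study's methods; the strand setting and annotation release are not given in the sources used here. Of all reads in the table, 36.3% to 38.3% were on genes, and identifiers of 99.5% of genes matched GENCODE M21.

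Counts were tested with edgeR 4.0.16 in R 4.3.3: filterByExpr kept 12559 genes, libraries were scaled by TMM, 1 quasi-likelihood fit held the 4 group means, and tests were two-sided, with Benjamini-Hochberg adjustment across the tested genes and a threshold of 0.01. Fold changes against groups with at most 3 counts in every library are bounds against that floor, which covers counting error only. Correlations used log2 CPM with a prior count of 2. P-values measure the spread between cultures, which are not separate animals. The procedure was tested on simulated data.

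Treated and untreated cultures of a line share their organoid line, so lines pair treated with untreated cultures. Deviations from group means correlated at 0.26 to 0.44 within and -0.43 to -0.22 between fl/fl lines, and at 0.06 to 0.32 and -0.35 to -0.08 in ΔIEC lines. Lines are nested in genotype, so no block could be fitted for genotype differences.

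The members and lists were chosen with earlier results of these data known. All members are named, and of each pathway list the genes past the threshold with the largest changes, up to 3 per direction and comparison; for each member the 3 genes with the highest Pearson's r are given. Alternatives were DESeq2 1.42.0, RLE scaling, no filter, at least 10 counts in every culture, a threshold of 0.05, cultures of a line summed, limma-voom 3.58.1 with duplicateCorrelation (0.261), the line as a block, a fit of the compared groups, and each culture and line left out. Fam132b was not analysed here. A listed gene that the rule would name is not reported here.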

Additional observations from a re-analysis of the deposited data

How the results depend on the processing

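The Lcn2 rise and the Slc11a2 fall in ΔIEC organoids kept direction and threshold under every alternative in which they were tested; with at least 10 counts in every culture, Lcn2 was not tested. In fl/fl organoids Slc11a2 fell short only with the cultures of a line summed (-1.47, adjusted p = 0.035). The causes of the changes below were not tested.

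The number of members called for IL-22 in fl/fl organoids (3) was 6 with the organoid line as a block, which uses the pairing of cultures by line, 5 with limma-voom and duplicateCorrelation, 5 at an adjusted p of 0.05 and 1 with cultures of a line summed, which leaves 2 lines per group. In ΔIEC organoids Cybrd1 and Slc40a1 also passed with no filter (adjusted p = 2.75e-28 and 7.18e-05), and Cybrd1 with limma-voom (adjusted p = 0.00434). The number called there (4) was 6 with the line as a block, 2 with cultures summed and 2 without line 1292. For untreated genotypes (1) it was 4 with no filter, 0 with cultures summed, 0 without line 1290, 1292 or 1293, 5 without line 1294, and 0 to 2 with single cultures left out; the 0s came without ΔIEC replicate 1 and without fl/fl replicate 1 or 2. For treated genotypes (2) it was 4 with no filter, 0 with cultures summed, 1 without line 1290, 1292 or 1293, and 1 to 2 with single cultures left out, with Fth1 lost without ΔIEC replicate 1, 2 or 4 or fl/fl replicate 1, 2 or 3. Fth1 in fl/fl organoids was lost without untreated replicate 1 or 2 or treated replicate 3 or 4 (adjusted p from 0.0182 to 0.0226). For the interaction (0) it was 1, Slc11a2, with no filter and with the line as a block.

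Signs turned only for values that had not passed. Slc40a1 with IL-22 in fl/fl organoids was 0.0187 with the block, 0.0074 with limma-voom, 0.29 without line 1293 and -0.26 to 0.18 with single cultures left out. Heph there was 0.0001 with the block, 0.0159 with cultures summed, 0.19 without line 1293 and -0.12 to 0.053 with single cultures left out, and its interaction was -0.084 without line 1293. The Cybrd1 genotype difference was -0.41 without line 1292, -0.57 without line 1294 and -0.18 to 0.44 with single cultures left out in untreated organoids, and 0.14 without line 1290 and 0.57 without line 1293 in treated ones. Slc40a1 in untreated organoids was 0.33 without line 1293.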
